A study of Mus musculus with 143 samples.

Results

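The genes described here are 7 transcription factor genes of the mouse oocyte, Nobox, Figla, Sohlh1, Sohlh2, Lhx8, Taf4b and Tbpl2, taken by name from the 55487 genes counted in each library. Oocyte nuclear factors of this kind switch on the programme that turns a germ cell into a growing egg: SOHLH1, SOHLH2, LHX8 and NOBOX act in the first follicles, FIGLA drives the genes of the egg coat, and TAF4B and TBPL2 are oocyte forms of the general machinery that loads RNA polymerase II onto promoters. Their messages are made while the oocyte grows, and transcription then stops before the fully grown oocyte resumes meiosis. The nuclear RNA exosome, which degrades unstable transcripts, cuts RNA through its ribonucleases DIS3 and EXOSC10.

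The study sequenced RNA of single mouse oocytes, 71 libraries of poly(A) RNA and 48 of RNA depleted of ribosomal RNA (RiboMinus). The RiboMinus groups held 8 libraries each: growing oocytes of mice at postnatal day 20 (p20) labelled control, Dis3 cKO, Exosc10 cKO and dcKO, and oocytes of adults at the germinal vesicle stage (GV, the fully grown oocyte arrested before meiosis resumes) labelled control and Dis3 cKO. The poly(A) groups were oocytes at GV, after 3 h of culture (GV3h) and as ovulated metaphase eggs (MII), with 8 libraries from control oocytes per stage and, from Dis3 cKO oocytes, 15, 16 and 16. GV and 3 h oocytes came from dissected ovaries cultured in M2 medium, MII eggs from the oviducts of superovulated mice, and mutant mice were made with CRISPR/Cas9; the labels name no Cre driver, no strain and no animal behind a library, and do not spell out dcKO. CUT&Tag, which maps a chromatin protein by cutting DNA where an antibody binds, was done on pooled oocytes for H3K27me3, a histone mark of Polycomb silencing, and for RNA polymerase II with an antibody labelled pols2s5, in 3 libraries a group.

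Gene counts per library ran from 4843964 to 15412200 in poly(A) and from 8492102 to 35429028 in RiboMinus libraries. Dis3 averaged 13.1 CPM (counts scaled to a library of 1e+06) in poly(A) GV controls and 2.88 CPM in Dis3 cKO; in p20 dcKO oocytes Dis3 averaged 2.83 CPM against 13.6 CPM in controls, and Exosc10 averaged 7.25 CPM against 117 CPM, so both genes were low there. All 10 oocyte markers examined were above 1 CPM in the median library of every group. Markers of granulosa cells, the somatic cells around the oocyte, summed to between 43.5 and 264 CPM over the 13 genes (in poly(A) MII 58.6 to 93.7 CPM in Dis3 cKO and 103.7 to 189 CPM in controls, without overlap, and at GV and GV3h medians of 94.8 and 71.0 CPM in Dis3 cKO and 145 and 87.1 CPM in controls; their part in the Dis3 results was not tested), and those of theca and stroma to at most 43.2 CPM. At MII most of the granulosa sum came from Cyp19a1, Nr5a2 and Kitl. Their means were 27.4, 34.9 and 10.1 CPM in Dis3 cKO and 64.4, 30.9 and 17.5 CPM in controls. In both MII groups 10 of the 13 genes had a median under 1 CPM. The theca and stroma medians at GV, GV3h and MII were 6.46, 7.84 and 7.30 CPM in Dis3 cKO and 2.66, 2.77 and 2.46 CPM in controls, and their part was not tested either. A single poly(A) library stood apart: library 15 of the MII Dis3 cKO group had a gene to spike-in ratio of 14.4 against 48.6 to 81.0 in the other 15. Its Mos, a kinase gene of the maturing oocyte, was at 9.61 CPM against 2587 to 4149 CPM, and its oocyte markers summed to 7665 CPM against 20860 to 34210 CPM. The main MII test of these genes against controls is given with and without it below. The spike-in values at MII, and the MII values of targets and partners, include it. Levels are CPM after trimmed-mean (TMM) scaling, shown as mean ± SD over libraries; a difference was tested with edgeR's quasi-likelihood test over all genes and called at an adjusted p under 0.05. As no label ties libraries to animals, p-values measure the spread between libraries. A level in CPM is a share of the library, so less of 1 message and more of all others cannot be told apart without the spike-ins, and no level is compared between genes or between the assays.

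Of the 7 genes, 6 had enough counts to enter the test in each comparison; Sohlh1 did not and is given as counts. In RefSeq annotation of GRCm38.p6, Tbpl2 lies at chr2:24071366-24096595 and Sohlh1 at chr2:25842995-25847248, both on the minus strand. Sohlh2 lies at chr3:55182044-55209957 on the plus strand and Lhx8 at chr3:154306288-154330560 on the minus strand. Nobox lies at chr6:43303674-43310072 on the minus strand and Figla at chr6:86016494-86020996 on the plus strand. Below are the 250 bases before the start of Lhx8 (chr3:154330561-154330810, minus strand), Sohlh1 (chr2:25847249-25847498, minus strand) and Tbpl2 (chr2:24096596-24096845, minus strand), shown because H3K27me3 differed at Lhx8, Sohlh1 gained counts in the dcKO and Tbpl2 was the gene called between the ages. They are read 5′ to 3′, with matches to the E-box CANNTG, the element bound by basic helix-loop-helix factors such as FIGLA, SOHLH1 and SOHLH2, in capitals.
Lhx8: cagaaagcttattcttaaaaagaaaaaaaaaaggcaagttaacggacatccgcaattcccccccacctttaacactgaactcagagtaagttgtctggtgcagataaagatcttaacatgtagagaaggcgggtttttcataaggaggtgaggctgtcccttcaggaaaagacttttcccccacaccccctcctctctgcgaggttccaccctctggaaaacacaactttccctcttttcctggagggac
Sohlh1: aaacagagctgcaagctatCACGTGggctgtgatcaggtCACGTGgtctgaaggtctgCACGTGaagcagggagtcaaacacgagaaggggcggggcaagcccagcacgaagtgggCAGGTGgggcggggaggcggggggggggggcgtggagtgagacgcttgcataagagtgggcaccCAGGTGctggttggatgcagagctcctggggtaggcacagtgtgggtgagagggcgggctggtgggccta
Tbpl2: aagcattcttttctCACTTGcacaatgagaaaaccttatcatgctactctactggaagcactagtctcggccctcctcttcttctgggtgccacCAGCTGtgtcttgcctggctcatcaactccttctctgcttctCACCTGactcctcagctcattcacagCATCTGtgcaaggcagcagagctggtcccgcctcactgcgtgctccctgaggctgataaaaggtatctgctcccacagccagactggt
The Lhx8 stretch held no CANNTG, Sohlh1 held 5 and Tbpl2 held 4, on either strand. Of the 250-base stretches of 27018 genes, 66.1% held at least 1 match, so a match is common. Sohlh1 had 3 copies of the form CACGTG, which 6.05% of stretches held at least once; this form was counted after the sequence was seen. Nobox and Figla held 2 CANNTG matches each, in stretches that lie within their annotated gene spans, and Sohlh2 held 1. None of these 6 stretches held TAATTG or TAATTA (homeobox elements of the NOBOX type, in 7.34% and 4.9% of stretches), TGATTG (LHX8 type, 13.1%) or TATAAA (13%).

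The contrast of growing with fully grown oocytes was small for most of these genes. Among controls, 1 of the 6 genes tested differed between adult GV and p20, where 19.1% of 17267 genes did: Tbpl2, which takes the place of the TATA-binding protein in growing oocytes, fell. Its level was 26.8 ± 5.15 CPM at p20 (lowest 15.6, median 29.0, highest 31.9) and 15.9 ± 3.67 CPM in adults (lowest 11.5, median 14.9, highest 22.4). The ranges overlapped, but each of the 8 adult libraries lay below the p20 mean. The log2 difference was -0.75 (SE 0.17, adjusted p = 0.00151). Within the 2 title tags of each group the means were 27.01 and 26.6 CPM at p20 and 15.5 and 16.4 CPM in adults; with counts summed per tag, so that each group had 2 sums, the adjusted p was 0.115 and 237 of 22815 genes passed. What a tag marks is not stated, and age, library preparation and any batch between the p20 and adult libraries cannot be told apart.

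The other 5 genes did not pass. Lhx8, a LIM-homeobox factor, averaged 215 ± 16.6 CPM at p20 and 181 ± 12.7 CPM in adults, with all 8 adult libraries below the p20 mean (log2 -0.25, SE 0.11, adjusted p = 0.116; 0.00159 when only these 2 groups were fitted). Nobox, a homeobox factor that activates many oocyte genes, averaged 408 ± 31.9 and 360.5 ± 39.0 CPM (adjusted p = 0.291; 0.0362 when only these 2 groups were fitted). Figla averaged 12.7 ± 2.31 and 10.95 ± 1.56 CPM, Taf4b 66.1 ± 15.6 and 58.8 ± 10.3 CPM, and Sohlh2 7.14 ± 2.47 and 9.75 ± 2.61 CPM, with adjusted p between 0.305 and 0.393. Their ranges overlapped between the ages. The Taf4b gene overlaps Gm21055, 4930543D07Rik and Gm9474; whether counting used strand is not given in the sources used here, so reads from these loci may not be separable. Sohlh1, which pairs with SOHLH2, gave 15 counts over the 8 p20 libraries, 5 of them at 0, and 28 counts over the 8 adult libraries, also 5 at 0.

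Scaling to the ERCC spike-ins changed this contrast for all genes together. The ratio of gene to spike-in counts was 1267 ± 178 in p20 and 403 ± 48.5 in adult controls, and with spike-in scaling the median gene lay at -1.68 on the log2 scale in adults. All 6 genes then passed as lower, from -1.21 for Sohlh2 to -2.42 for Tbpl2, where 14856 of 17267 genes (86.0%) passed and 74 of those were higher. Measured from the median gene, the differences were as before: -0.74 for Tbpl2, -0.24 for Lhx8, -0.17 for Nobox and 0.47 for Sohlh2. All RNA samples are labelled as holding spike-ins, but the amount is described only in the poly(A) protocol, so that put into each RiboMinus lysate is not known here.

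**Figure D1:**
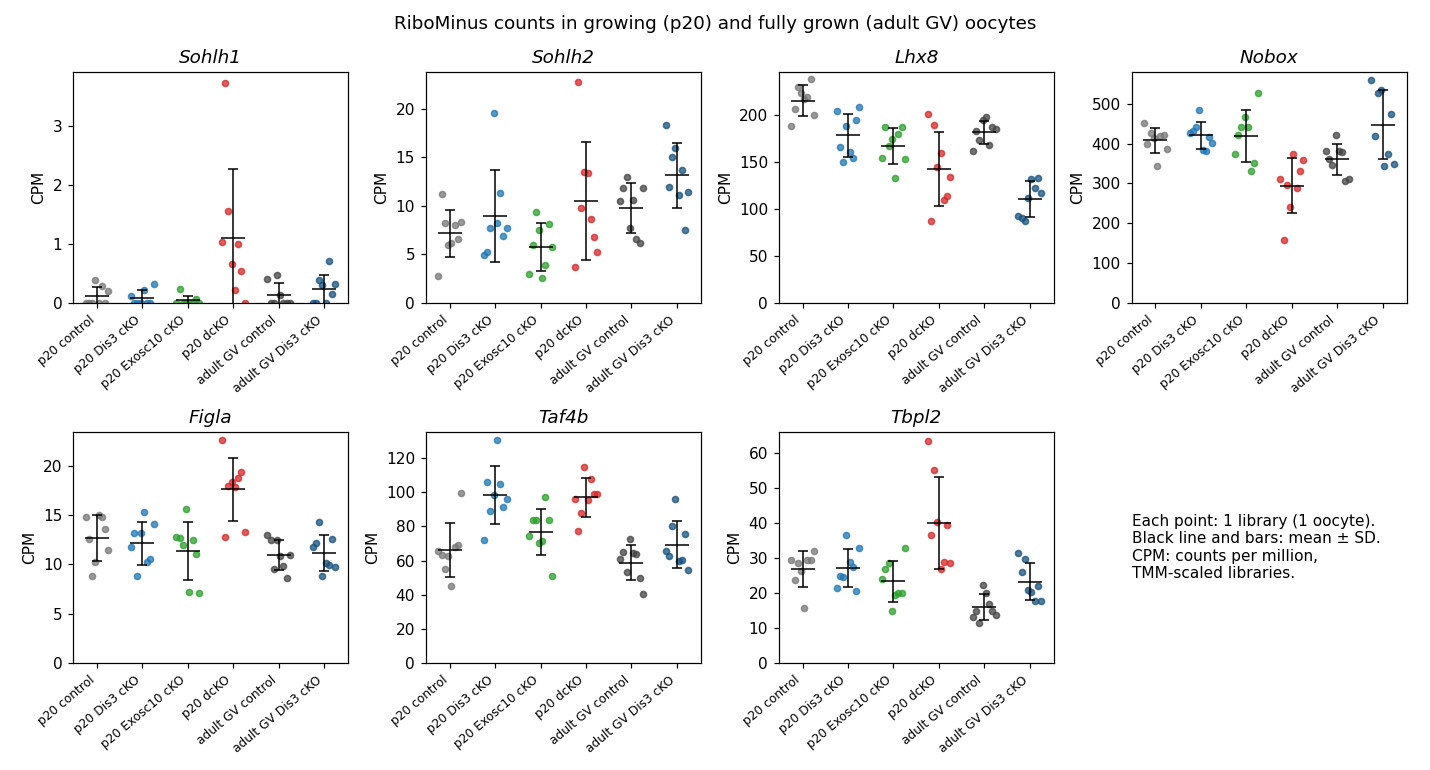
TMM-scaled CPM of the 7 genes (1 panel each, linear axis) in the 6 RiboMinus groups; each point is 1 library of 1 oocyte, and the black lines show mean ± SD over 8 libraries. Lhx8 is highest in p20 controls (215 CPM on average) and lowest in adult Dis3 cKO (110.4 CPM); Tbpl2 is highest in p20 dcKO (39.96 CPM) and lowest in adult controls (15.9 CPM).

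In Dis3 cKO oocytes the same contrast of ages named other genes: 2 of 6 passed as lower in adults, where 37.5% of all genes passed. Lhx8 averaged 178 ± 23.1 CPM at p20 (lowest 150, median 177, highest 208) and 110.4 ± 18.7 CPM in adults (lowest 86.6, median 114, highest 133). The groups did not overlap, and the log2 difference was -0.69 (SE 0.11, adjusted p = 3.8e-06). Taf4b, a germ-cell subunit of the initiation complex TFIID, averaged 98.5 ± 16.8 CPM at p20 and 69.3 ± 13.8 CPM in adults (log2 -0.51, SE 0.13, adjusted p = 0.0016). Both differences also passed with counts summed per tag, at adjusted p = 0.0118 and 0.0341, where 11.8% of 22815 genes passed. With spike-in scaling all 6 genes passed as lower, as 14229 of 17267 genes (82.4%) passed and the median gene lay at -1.87; Nobox and Sohlh2 turned from 0.09 and 0.55 to -1.80 and -1.26. Measured from that median, Lhx8 was at -0.76, Taf4b at -0.57, Nobox at 0.07 and Sohlh2 at 0.61. Tested directly, the difference between the 2 age contrasts passed for none of the 6 genes with edgeR or DESeq2, where 9.32% of all genes passed; Lhx8 came nearest at log2 -0.44 (SE 0.16, adjusted p = 0.0666), and Lhx8 and Tbpl2 had an unadjusted p under 0.05. The Lhx8 value passed when only the 4 groups compared were fitted (adjusted p = 0.0145).

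Lhx8 fell in Dis3 cKO oocytes of adults. Control libraries lay between 162 and 198 CPM (median 184) and Dis3 cKO libraries between 86.6 and 133 CPM (median 114). No library of either group reached the range of the other, and the log2 difference was -0.69 (SE 0.087, adjusted p = 1.4e-05). The means of the 2 control tags were 178 and 185 CPM and those of the 2 Dis3 cKO tags 94.9 and 126 CPM. Both Dis3 cKO tags thus lay below both control tags, while a test on the 2 sums a group gave an adjusted p of 0.154. None of the 20190 genes in that test passed.

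Tbpl2 and Nobox rose in the same oocytes, so that 3 of 6 genes passed where 28.1% of 15334 genes did. Tbpl2 went from 15.9 ± 3.67 CPM to 23.3 ± 5.27 CPM (log2 0.57, SE 0.16, adjusted p = 0.0139), with all 8 Dis3 cKO libraries above the control mean. Nobox went from 360.5 ± 39.0 CPM (lowest 305, median 370.1, highest 421) to 448 ± 87.9 CPM (lowest 344, median 447, highest 560.1); the log2 difference was 0.34 (SE 0.11, adjusted p = 0.0304), and the ranges overlapped. The gain of Nobox lay mostly in 1 tag: its means were 510.2 and 385 CPM in the Dis3 cKO tags and 377 and 344 CPM in controls. Leaving out control library AM1758_3, AM1759_3 or AM1759_4, or Dis3 cKO library AM1713_1, AM1713_3 or AM1713_4, ended the call (adjusted p from 0.0522 to 0.0681). With spike-in scaling its direction turned to -0.17 while the median gene moved to -0.49. Tbpl2 was then at 0.05 (adjusted p = 0.881), so both calls were lost, while Lhx8 passed (-1.23, adjusted p = 6.08e-05). With counts summed per tag, Tbpl2 and Nobox were lost as well (adjusted p = 0.299 and 0.417). Measured from the spike-in median, Nobox was 0.32 higher, Tbpl2 0.54 higher and Lhx8 0.75 lower. Sohlh2 averaged 13.1 ± 3.35 CPM against 9.75 ± 2.61 CPM (adjusted p = 0.0883), and Figla and Taf4b had adjusted p of 0.791 and 0.144.

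At p20, loss of 1 ribonuclease moved few of these genes. In Dis3 cKO oocytes Taf4b rose from 66.1 ± 15.6 CPM (lowest 45.3, median 64.4, highest 99.7) to 98.5 ± 16.8 CPM (lowest 72.2, median 97.0, highest 131). All 8 Dis3 cKO libraries lay above the control mean, and 1 control library reached their range. The log2 difference was 0.58 (SE 0.13, adjusted p = 0.00239), the 1 call among 6 genes where 7.37% of 15882 genes passed; with counts summed per tag the adjusted p was 0.0644 and 286 of 20911 genes passed. With spike-in scaling it was 0.499, at log2 0.29 with the median gene at -0.27, so that Taf4b lay 0.55 above the median. In Exosc10 cKO oocytes no gene of the 6 passed with edgeR, where 7.45% of all genes did and where 1 gene, Lhx8, had an unadjusted p under 0.05. Lhx8 there averaged 167 ± 19.1 CPM (lowest 133, median 171, highest 187), below every control library (lowest 188), with a log2 difference of -0.37 (SE 0.12, adjusted p = 0.0507); DESeq2 called it, as did a fit of these 2 groups alone (adjusted p = 0.00552). In Dis3 cKO at p20 Lhx8 averaged 178 ± 23.1 CPM and was not called (log2 -0.27, SE 0.12, adjusted p = 0.189; 0.0261 when only these 2 groups were fitted), although all 8 libraries lay below the control mean.

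With both ribonucleases low, 5 of the 6 genes passed at p20, where 53.7% of all genes did. Lhx8 fell to 142 ± 39.7 CPM (lowest 86.8, median 139, highest 201; log2 -0.59, SE 0.12, adjusted p = 9.7e-05). Nobox fell to 294 ± 69.7 CPM (lowest 157, median 303, highest 374; log2 -0.46, SE 0.11, adjusted p = 0.000902), with no library above the control mean. The Nobox call thus had the opposite sign to that in the adult Dis3 cKO, whose sign turned with spike-in scaling. Figla, the E-box factor of the zona genes, rose from 12.7 ± 2.31 to 17.6 ± 3.22 CPM (log2 0.48, SE 0.16, adjusted p = 0.0129). Taf4b rose to 97.2 ± 11.5 CPM (log2 0.56, SE 0.13, adjusted p = 0.000344) and Tbpl2 to 39.96 ± 13.2 CPM (log2 0.58, SE 0.18, adjusted p = 0.00536). For these 3 genes all 8 dcKO libraries lay above the control mean. The gain of Tbpl2 was uneven, with means of 49.0 and 31.0 CPM in the 2 dcKO tags; with counts summed per tag, Nobox, Lhx8 and Taf4b still passed (adjusted p = 0.0319, 0.00256 and 0.012) and Figla and Tbpl2 did not (0.149 and 0.0711). Scaled to spike-ins, which moved the median gene to -0.03, Lhx8 alone passed (log2 -0.59, adjusted p = 0.0214), where 36.7% of all genes did. The other 4 kept their directions with adjusted p from 0.0862 to 0.166. Their log2 values were -0.44 for Nobox, 0.45 for Figla, 0.51 for Taf4b and 0.49 for Tbpl2.

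Sohlh2 did not pass against controls at 10.5 ± 6.11 CPM (adjusted p = 0.144). Sohlh1 gave 117 counts over the 8 dcKO libraries, against 15 in p20 controls, 7 in Dis3 cKO and 5 in Exosc10 cKO. In the dcKO 1 library was at 0, the median was 0.818 CPM and library 1_2 reached 3.72 CPM, the highest of any RiboMinus library. Tested without the low-count filter, a step chosen after the counts were seen, Sohlh1 differed from controls by 3.22 on the log2 scale (SE 1.08, edgeR adjusted p = 0.0197). In that test 32.1% of 33384 genes passed, and at so few counts the size is loose. The gain was uneven, with Sohlh1 means of 1.74 and 0.438 CPM in the 2 dcKO tags and 0.0975 and 0.119 CPM in the p20 control tags.

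**Figure D2:**
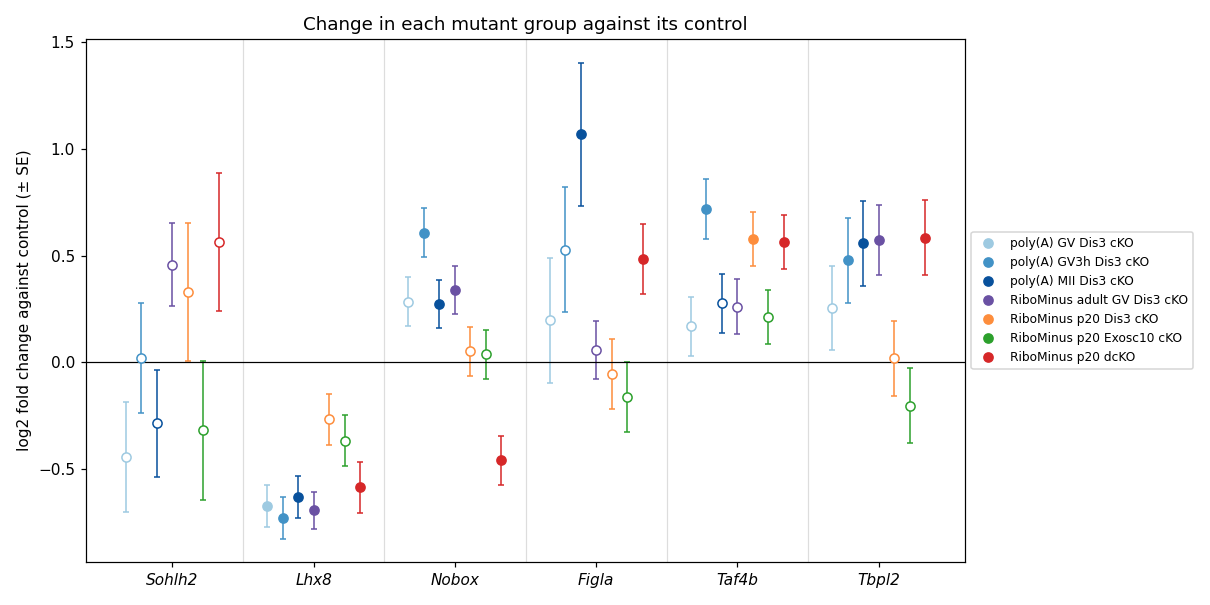
Log2 fold change (± SE, from edgeR) of 6 genes in each mutant group against the control of its own stage and assay; filled points passed an adjusted p of 0.05, open points did not. Lhx8 lies below 0 in all 7 comparisons, from -0.73 in poly(A) GV3h to -0.27 in p20 Dis3 cKO, while Nobox is positive in poly(A) GV3h (0.61) and negative in p20 dcKO (-0.46).

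Set against the single mutants, comparisons added after the data were seen, the dcKO differed from Dis3 cKO in 4 of 6 genes (51.5% of all genes) and from Exosc10 cKO in 5 of 6 (49.2%). Nobox was lower in the dcKO than in Dis3 cKO (log2 -0.51, SE 0.11, adjusted p = 0.000337), without overlap, and lower than in Exosc10 cKO (log2 -0.50, SE 0.11, adjusted p = 0.000479). Figla was higher by 0.54 and 0.65 and Tbpl2 by 0.56 and 0.79 on the log2 scale, each passing. Taf4b was at 97.2 CPM against 98.5 CPM in Dis3 cKO (log2 -0.02, SE 0.13, adjusted p = 0.932) and above Exosc10 cKO (log2 0.35, SE 0.13, adjusted p = 0.0216; lost without dcKO library 1_4 or 2_2 or Exosc10 cKO library 2_4, at most 0.0818). Lhx8 was lower than in Dis3 cKO (log2 -0.32, SE 0.12, adjusted p = 0.0249), a call lost without Dis3 cKO library 1_1, 2_3 or 2_4 (adjusted p from 0.0683 to 0.0844) and when only these 2 groups were fitted (0.0574); the difference from Exosc10 cKO was -0.22 (SE 0.12, adjusted p = 0.129). Sohlh2 was higher than in Exosc10 cKO alone (log2 0.88, SE 0.33, adjusted p = 0.0242; lost without dcKO library 1_2 or 1_4 or Exosc10 cKO library 1_1 or 2_1, at most 0.125), and the test against Dis3 cKO gave an adjusted p of 0.571. With spike-in scaling, Nobox and Lhx8 were lost against Dis3 cKO (log2 -0.20 and -0.05, adjusted p = 0.481 and 0.883), where the median gene lay at 0.27; measured from it they were at -0.47 and -0.32. Against Exosc10 cKO, where it lay at -0.04, Nobox, Figla, Sohlh2 and Taf4b were lost at log2 -0.46, 0.56, 0.77 and 0.29 (adjusted p = 0.0866, 0.0899, 0.0649 and 0.393). With counts summed per tag, Figla and Tbpl2 were lost against Dis3 cKO (adjusted p = 0.115 and 0.0751), and Figla and Taf4b against Exosc10 cKO (0.0632 and 0.0825).

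Ordered over the 6 RiboMinus groups, Lhx8 ran from p20 control through adult control, p20 Dis3 cKO, p20 Exosc10 cKO and p20 dcKO to adult Dis3 cKO. Only the step below p20 control (33.8 CPM) exceeded the SD of both neighbours. For Taf4b the step between p20 dcKO and p20 Exosc10 cKO (20.3 CPM) did, with p20 Dis3 cKO on top and adult control last. For Figla the step below p20 dcKO (4.95 CPM) did, and for Tbpl2 the step down to adult control (7.36 CPM). Nobox had such a step of 47.3 CPM between p20 control and adult control, with adult Dis3 cKO highest and p20 dcKO lowest. No neighbours differed that far for Sohlh1 or Sohlh2.

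In poly(A) RNA, Lhx8 was lower without Dis3 at each stage. At GV, 1 of 6 genes passed where 21.9% of 17389 genes did: Lhx8 went from 91.1 ± 14.3 CPM (lowest 68.5, median 88.5, highest 115) to 57.1 ± 6.17 CPM (lowest 45.2, median 58.6, highest 66.2), without overlap (log2 -0.67, SE 0.099, adjusted p = 1.4e-07). At GV3h it went from 102 ± 13.6 to 61.7 ± 8.99 CPM, again without overlap (log2 -0.73, SE 0.097, adjusted p = 6.4e-09). At MII it went from 54.7 ± 8.34 to 35.3 ± 6.72 CPM (log2 -0.63, SE 0.098, adjusted p = 2.3e-07), with no egg of 16 above the control mean. With spike-in scaling the MII median gene lay 0.55 higher in Dis3 cKO, and Lhx8 was -0.21 and did not pass (adjusted p = 0.342); measured from that median it was -0.77. In the GV and GV3h comparisons Lhx8 passed under spike-in scaling too.

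Nobox, Taf4b and Tbpl2 rose at GV3h, where 4 of 6 genes and 38.6% of all genes passed. Nobox went from 376 ± 29.7 CPM (lowest 333, median 376, highest 415) to 572 ± 89.6 CPM (lowest 426, median 578, highest 709). Every one of the 16 Dis3 cKO libraries lay above every control library (log2 0.61, SE 0.11, adjusted p = 1.7e-05). Taf4b went from 40.8 ± 7.65 to 67.0 ± 14.8 CPM (log2 0.72, SE 0.14, adjusted p = 2.9e-05), all 16 above the control mean. Figla, not among the 4, went from 40.2 ± 5.57 CPM (lowest 33.1, median 41.2, highest 46.6) to 57.9 ± 11.2 CPM (lowest 42.6, median 56.4, highest 80.1), with all 16 Dis3 cKO libraries above the control mean (log2 0.53, SE 0.29, adjusted p = 0.152). A fit of these 2 groups alone called it (adjusted p = 0.000255) beside the 4, where 54.6% of all genes passed. Tbpl2 went from 14.8 ± 2.57 to 20.5 ± 6.89 CPM (log2 0.48, SE 0.20, adjusted p = 0.0487), a value just inside the threshold, lost without any of control libraries 2 to 7 or of Dis3 cKO libraries 2, 3, 5, 7, 8, 12, 15 and 16 (adjusted p up to 0.11). It was also lost with spike-in scaling (0.178), DESeq2's size factors (0.0543), no low-count filter (0.0765) and the title number as a block (0.0624). At GV the same 3 genes were not called: Nobox had a log2 difference of 0.28 (adjusted p = 0.0645; DESeq2 called it), Taf4b 0.17 (0.432) and Tbpl2 0.25 (0.402). The difference between the effects at GV3h and GV passed for no gene of the 6 with edgeR or DESeq2, where 2.04% of all genes passed; Nobox and Taf4b had an unadjusted p under 0.05.

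At MII, 4 of 6 genes passed where 42.1% of all genes did. Besides Lhx8 these were Figla (log2 1.07, SE 0.33, adjusted p = 0.0073), Tbpl2 (0.56, SE 0.20, adjusted p = 0.0186) and Nobox (0.27, SE 0.11, adjusted p = 0.046), each higher. Figla was at 3.03 ± 2.08 CPM in control eggs (lowest 0.582, median 2.95, highest 6.74) and at 6.29 ± 6.56 CPM in Dis3 cKO eggs (lowest 1.38, median 3.79, highest 26.1). Its mean rested on a few eggs: libraries 7 and 11 stood at 26.1 and 15.8 CPM, and these 2 also had the highest Zp3, 690.2 and 601 CPM against 70.2 to 148.5 CPM in controls. Without library 7 the log2 difference was 0.72 (adjusted p = 0.0421) and without library 11 it was 0.92 (adjusted p = 0.0189). Nobox was just inside the threshold and was lost without any of control libraries 1 to 6 or of Dis3 cKO libraries 1, 5, 7 and 11 to 16 (adjusted p up to 0.141); Tbpl2 was lost without control library 1 or 5 (0.0681 and 0.0511). Nobox was also lost with DESeq2 (0.081), its size factors (0.0877), no low-count filter (0.136), title numbers 1 to 8 alone (0.396) and a fit of these 2 groups alone (0.184), and that last fit lost Figla too (0.134). With spike-in scaling 45.8% of all genes passed and Nobox, Figla, Taf4b and Tbpl2 were called, at log2 0.69, 1.62, 0.69 and 0.95 (adjusted p = 0.00183, 0.000829, 0.00952 and 0.00135). Measured from the median gene, which lay at 0.55, they were 0.14, 1.07, 0.14 and 0.40 higher. Without library 15, the egg that stood apart, Nobox had a log2 difference of 0.25 (adjusted p = 0.0653) and Figla, Tbpl2 and Lhx8 remained (adjusted p = 0.00363, 0.0246 and 2.82e-07). The difference between the effects at MII and GV passed for none of the 6 genes in edgeR or DESeq2, where 13.2% of all genes passed and where Figla had an unadjusted p under 0.05. With spike-in scaling 5 of 6 genes passed, where 37.4% of all genes did and the median gene lay at 0.74: Figla at 1.75, Tbpl2 at 1.01, Taf4b at 0.81, Lhx8 at 0.74 and Nobox at 0.71, the last with its sign turned (adjusted p from 0.0078 to 0.0349). Measured from that median, Figla was 1.01, Tbpl2 0.27 and Taf4b 0.07 higher.

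**Figure D3:**
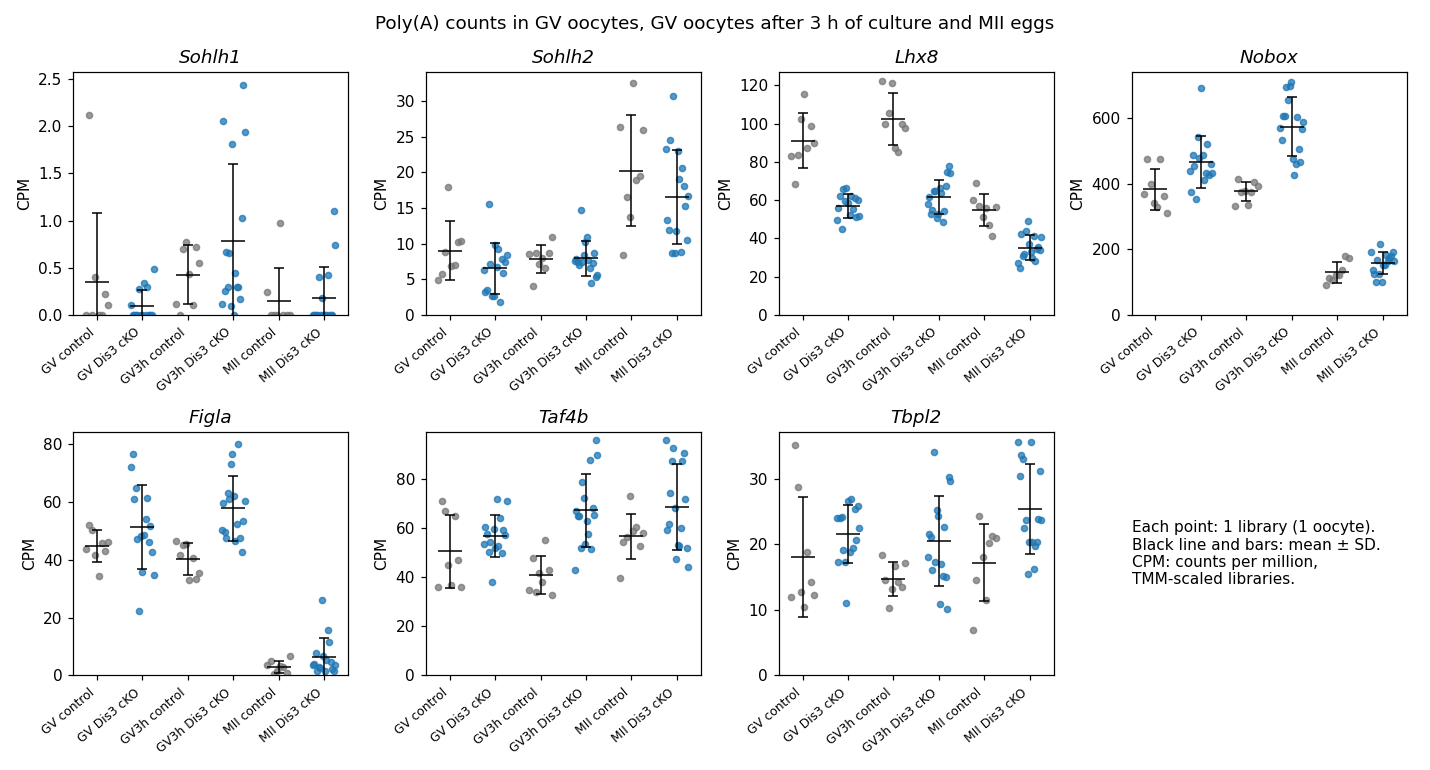
TMM-scaled CPM of the 7 genes (1 panel each, linear axis) in poly(A) libraries of GV, GV3h and MII oocytes, control in grey and Dis3 cKO in blue; each point is 1 library of 1 oocyte, and black lines show mean ± SD. Figla drops from 44.7 CPM at GV to 3.03 CPM at MII in controls, and Lhx8 is lower in Dis3 cKO than in control oocytes at each stage.

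From GV to MII the levels in poly(A) RNA parted. MII eggs have no RiboMinus libraries, so the amount of a message and its capture by poly(A) tail cannot be told apart here. In controls 4 of 6 genes passed, where 58.5% of all genes did. Figla fell from 44.7 ± 5.45 CPM to 3.03 ± 2.08 CPM (log2 -3.88, SE 0.39, adjusted p = 4.6e-14), Nobox from 382 ± 62.7 to 130.2 ± 31.3 CPM (log2 -1.55, SE 0.13, adjusted p = 6.9e-17) and Lhx8 from 91.1 to 54.7 CPM (log2 -0.74, SE 0.12, adjusted p = 8.3e-08). For Figla and Nobox no egg reached the GV range. Sohlh2 rose in share, from 9.01 ± 4.13 to 20.2 ± 7.76 CPM (log2 1.17, SE 0.30, adjusted p = 0.000501), with 7 of 8 eggs above the GV mean. Scaled to spike-ins, the median gene fell by 1.76 on the log2 scale, Sohlh2 turned to -0.23 (adjusted p = 0.51) and Taf4b to -1.35, and Tbpl2 went from -0.07 to -1.65; measured from that median, Figla was -3.59, Nobox -1.33, Lhx8 -0.44 and Sohlh2 1.53.

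Without Dis3 5 of 6 genes passed between GV and MII, where 63.3% of all genes did. The values were -3.01 for Figla, -1.57 for Nobox, -0.69 for Lhx8, 1.33 for Sohlh2 and 0.27 for Taf4b on the log2 scale. Taf4b (SE 0.11, adjusted p = 0.0295) was lost without GV library 6 or MII library 1, 5, 6, 12 or 13 (adjusted p up to 0.0631) and turned to -0.54 under spike-in scaling, which also lost Sohlh2 (log2 0.48, adjusted p = 0.0669). The median gene then lay at -1.09, and measured from it Taf4b was 0.55 and Sohlh2 1.57 higher. During the first 3 h of culture no gene of the 6 passed in controls with edgeR, where 2.71% of all genes did, none had an unadjusted p under 0.05 and DESeq2 called none. Sohlh1 stayed near the detection limit in poly(A) libraries: its counts summed to 21, 32 and 11 in control GV, GV3h and MII groups of 8, and to 14, 135 and 25 in the Dis3 cKO groups of 15, 16 and 16. Against controls its adjusted p without the low-count filter was at least 0.265.

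Lhx8 also differed in H3K27me3. Peaks, called in each library, were counted when they came within 1 kb of a gene's start; the signal given is the highest in the authors' peak, and no test was run, since an exact permutation test of 3 libraries against 3 gives no p below 0.1. At the Lhx8 start it was 42, 34 and 30 in p20 controls and 4, 0 and 5 in p20 dcKO, where 0 means no peak. In adult GV it was 14, 43 and 43 in controls and 0, 0 and 0 in Dis3 cKO. Both mutant groups thus lay below every control library of their age. Control peaks covered the printed stretch: in adult control 1 the peak spanned chr3:154329113-154331178 (2.07 kb), and in adult control 2 it spanned chr3:154321903-154338457 (16.6 kb).

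The same was seen over the whole Lhx8 locus with 10 kb on each side, a window added after the start-site values were seen. Peaks covered 29.2%, 35.2% and 29.4% of it in p20 controls and 12.9%, 8.71% and 8.76% in dcKO; they covered 22.5%, 58.5% and 24.4% in adult controls and 4.11%, 1.04% and 2.94% in Dis3 cKO. Peak lists were not shorter in the mutants: they covered 129 to 132 Mb in p20 controls, 165 to 193 Mb in dcKO, 66.8 to 152 Mb in adult controls and 153 to 195 Mb in adult Dis3 cKO. The median peak's total signal was lower in dcKO (1178 to 1526) than in p20 controls (2001 to 2126), and ran from 1227 to 3637 in adult controls and from 1446 to 1705 in adult Dis3 cKO. Per the labels, an equal number of reads was drawn from each library, duplicates kept; any further scaling of the signal is not given in the sources used here. Of the 3170 genes with a start peak in all 3 adult control libraries, 278 (8.77%) had none in any Dis3 cKO library, as Lhx8 did; of 5149 genes with one in all 3 p20 controls, 1185 (23%) had one in 2 of 3 dcKO libraries, as Lhx8 did. Lhx8 counts were lower in these 2 mutant groups too, in other oocytes than those used for the mark; a link between the measures was not tested.

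The other members had little of the mark at the start; Taf4b has no start site in the table used and was not scored. Among the 6 genes scored, a peak in at least 2 of 3 libraries was found for Lhx8 alone in adult controls (20.2% of 27025 genes), for Lhx8 and Sohlh2 in p20 controls (26.2%) and p20 dcKO (30.6%), and for Sohlh1 and Sohlh2 in adult Dis3 cKO (27.2%). Sohlh2 start peaks were weak, with a highest signal of 3 to 7 wherever one was called. Over its locus with 10 kb on each side the highest signal was 19, 15 and 17 in p20 controls and 8, 14 and 8 in dcKO. In adults it was 19, 5 and 18 in controls and 9, 9 and 9 in Dis3 cKO. Sohlh1 had no start peak in the 6 control libraries, signals of 2 and 6 in 2 adult Dis3 cKO libraries and 3 in 1 dcKO library. Nobox and Figla had none, and Tbpl2 had 1 weak peak in 1 adult control library. For Pol II at the start no gene of the 6 reached 2 of 3 libraries in adult control, p20 control or adult Dis3 cKO, where 1.99%, 7.03% and 6.03% of genes did. Single start peaks were called at Figla in 1 adult control and 1 adult Dis3 cKO library and at Sohlh1 in 1 p20 control library. Over each locus with 10 kb on each side, Pol II peaks were called in controls. In p20 and then adult controls Tbpl2 had 9, 9 and 7 and 2, 5 and 0. Lhx8 had 3, 2 and 4 and 2, 1 and 3, Taf4b 13, 8 and 15 and 5, 2 and 5, and Figla 4, 2 and 3 and 0, 1 and 1. Nobox, Sohlh1 and Sohlh2 had at most 1 in a library. The Pol II lists covered 49.0 to 52.3 Mb in p20 and 13.3 to 24.3 Mb in adult controls.

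**Figure D4:**
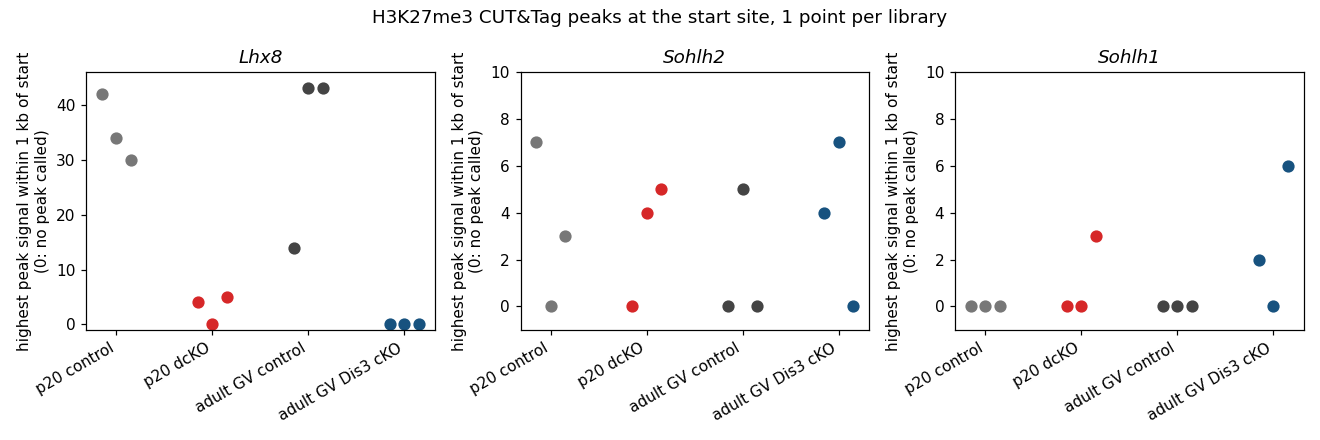
Highest H3K27me3 peak signal (authors' CUT&Tag peak value, linear axis) within 1 kb of the start of Lhx8, Sohlh2 and Sohlh1; each point is 1 library, 3 per group, and 0 marks a library with no peak there. The Lhx8 panel has its own axis range: controls lie between 14 and 43 and both mutant groups between 0 and 5.

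Known targets of these factors were followed as a list of 13 genes, among them the zona pellucida genes Zp1, Zp2 and Zp3 and the growth factors Gdf9 and Bmp15. In adult Dis3 cKO RiboMinus libraries 8 of 13 (61.5%, against 28.1% of all genes) passed, 1 higher and 7 lower, with a list median of -0.41 against 0.03 over all genes. With counts summed per tag none of the 20190 genes passed in this comparison, so these 8 calls were lost, as were those of the adult Dis3 cKO partners below. With spike-in scaling, where the median gene lay at -0.49, 12 of 13 targets passed, all lower, as 41.6% of all genes passed and 11.4% of those were higher. The largest were Zp3 (log2 -0.78, SE 0.087, adjusted p = 4.7e-06), Padi6, of the cytoplasmic lattices (-0.73, adjusted p = 6.3e-06), Kit, the receptor for KIT ligand (-0.65, adjusted p = 0.0125), and Zp1 (-0.58, adjusted p = 0.000193). With p20 Dis3 cKO 1 of 13 passed (7.69%, against 7.37% of all genes), Pou5f1 (-0.37, adjusted p = 0.0043). With p20 Exosc10 cKO 4 passed (30.8%, against 7.45%), all lower: Zp3 (-0.94), Padi6 (-0.78), Zp1 (-0.60) and Kit (-0.30). With p20 dcKO 9 passed (69.2%, against 53.7%), 3 higher and 6 lower, with Kit (-0.59), Zp2 (0.52), Oas1d (-0.50) and Padi6 (0.42) the largest. With counts summed per tag, 0, 0 and 5 of the 13 passed in these 3 groups, where 1.37%, 0.832% and 31.8% of all genes did. With spike-in scaling 1, 1 and 3 passed, where 4.49%, 2.26% and 36.7% of all genes did. In the dcKO none of the 13 was called as higher under either. Kit and Oas1d in the dcKO passed under both, while Padi6 was lost under both in Exosc10 cKO (log2 -0.77 and -0.72) and in dcKO (0.40 and 0.37).

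In poly(A) libraries 4 of the 13 targets (30.8%) passed at each stage without Dis3, against 21.9% of all genes at GV, 38.6% at GV3h and 42.1% at MII. Kit was lower at GV (-0.46, adjusted p = 0.0163), GV3h (-0.76, adjusted p = 1.6e-05) and MII (-0.70, adjusted p = 6.6e-05). Zp1 was lower at GV (-0.65) and GV3h (-0.57), and at MII Zp3 (1.02, adjusted p = 0.000771) and Zp2 (0.59, adjusted p = 0.0418) were higher and Rspo2 (-0.41) lower. With spike-in scaling 6 targets passed at MII, all higher, where 45.8% of all genes passed, 90.8% of those higher, and the median gene lay at 0.55. Kit was then at -0.25 (adjusted p = 0.381) and Rspo2 turned to 0.026 (0.927), and measured from that median they were at -0.80 and -0.53. Zp1 at GV3h was lost under it too (-0.60, adjusted p = 0.111). The zona values leaned on libraries 7 and 11: without both, a fit added after the data were seen, Zp3 was at 0.53 (SE 0.19, adjusted p = 0.0176) and Zp2 at 0.20 (SE 0.20, adjusted p = 0.433). Zp2 was lost without either alone (0.0971 and 0.163). Between adult and p20 controls 8 of 13 targets (61.5%, against 19.1% of all genes) passed, 2 higher and 6 lower, the largest being Padi6 (-0.61), Nlrp14 (-0.55), Zp2 (-0.55) and Gdf9 (-0.47). These are shares: with spike-in scaling, where the median gene lay at -1.68 and 86% of all genes passed, all 13 passed as lower. With counts summed per tag none of the 13 passed, where 1.04% of all genes did. Between MII and GV in controls all 13 passed (58.5% of all genes did), 7 higher and 6 lower, led by Zp3 (-3.61), Zp2 (-2.40), Zp1 (-2.37) and Oosp1 (1.43). With spike-in scaling 11 of 13 passed, all lower, as 13971 of 17389 genes passed with 101 of those higher and the median gene lay at -1.76. Oosp1 was then at -0.074 (adjusted p = 0.696), 1.69 above that median, and 7 of the 13 lay above the median gene.

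Partners of the factors, 13 genes for E-protein, LIM-binding, TFIIA and TFIID subunits and FOXO3, were followed likewise. Gtf2a1, the TFIIA subunit that works with TBPL2, was lower without Dis3 in poly(A) GV (-0.52, adjusted p = 0.00245), GV3h (-0.83, adjusted p = 4.7e-07) and MII (-0.70, adjusted p = 1.1e-05), in adult RiboMinus (-0.49, adjusted p = 0.00065) and in p20 dcKO (-0.65, adjusted p = 1.3e-06). In those 5 comparisons 3, 5, 5, 6 and 5 of the 13 partners passed (23.1%, 38.5%, 38.5%, 46.2% and 38.5%), against 21.9%, 38.6%, 42.1%, 28.1% and 53.7% of all genes. Tcf3, whose E-protein pairs with FIGLA, was lower in adult Dis3 cKO (-0.59, adjusted p = 0.000193) and higher in p20 dcKO (0.31, adjusted p = 0.0341). Tcf12, another E-protein gene, was higher in p20 dcKO (0.66, adjusted p = 8.2e-05) and lower in adult than p20 controls (-0.83, adjusted p = 0.000315). In p20 Dis3 cKO 3 partners passed (23.1%, against 7.37%), Ldb2 (-3.25), Tcf4 (1.41) and Tbpl1 (1.01), and in p20 Exosc10 cKO 1 (7.69%, against 7.45%), Gtf2a2 (0.63). With spike-in scaling Gtf2a1 passed as lower in all 5 comparisons, Tcf3 was lost in p20 dcKO (0.25, adjusted p = 0.363), and Tcf4, Tbpl1 and Gtf2a2 were lost (adjusted p = 0.111, 0.178 and 0.0914). With counts summed per tag Gtf2a1 and Tcf12 in the dcKO, Tcf12 between the ages and Ldb2 and Tcf4 passed, and Tcf3, Tbpl1 and Gtf2a2 did not (adjusted p = 0.305 in the dcKO, 0.222 and 0.331).

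Across the 48 RiboMinus libraries, the gene whose log2(CPM + 1) followed Lhx8 most closely was Nipsnap2 (r = 0.868), then Puf60 (0.845) and Gda (0.845), among 8278 genes with a mean of at least 10 CPM. Nobox was followed by Pkd2l2 (0.821), Fam161a (0.779) and Cnnm2 (0.765). Taf4b was followed by Usp12 (0.85), Sos2 (0.841) and Luzp1 (0.836), and Tbpl2 by Stam2 (0.849), Dpf2 (0.845) and Qrich1 (0.842). Figla went with Pex5 (0.722), Med14 and Fastk, and Sohlh2 with Trmt13 (0.607), Med4 and Srfbp1. These are descriptions over libraries that share groups, age and preparation.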

How the data were processed

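Whole-number gene counts were made by the authors; per the submitters' processing notes the tools used were cutadapt 2.5, FastQC 0.11.8, STAR 2.7.2a, SAMtools 1.9, HTSeq 0.9.1, R 3.5.1, DESeq2 1.24.0 and SEACR, with build mm10. The deposited CUT&Tag peak files give each peak's signal, total and maximum, called by library; per the labels, 3 IgG samples exist, not analysed here, and neither is poly(A) GV Dis3 cKO number 9.

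From the counts of 119 RNA libraries, edgeR 4.0.16 (R 4.3.3) was fitted per assay to all genes passing its low-count filter, with TMM scaling, a quasi-likelihood test and Benjamini-Hochberg adjustment. Adult and p20 RiboMinus mutants were fitted separately, and the age contrasts over all 6 groups. The fits were tested on simulated counts. Peaks within 1 kb of a RefSeq start (GRCm38.p6, 27025 genes) were counted. Promoters came from RefSeq, matched for 6 of the 7 genes. Alternatives were spike-in scaling, DESeq2 1.42.0, its size factors, no filter, fewer groups, a block on title number, sums per tag and each library left out. The text names all members, and up to 4 called genes of each list by size of change. The members and lists were chosen with earlier results of these data known.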

Additional observations from a re-analysis of the deposited data

Results flagged for a closer look

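In 7 of the 63 groups of 4 to 10 libraries tested, 1 library lay far from the others (Dixon's test at the 95% level, which chance alone passes in about 1 in 20 groups). Sohlh1 was at 2.115 CPM in poly(A) GV control library 2, with the next at 0.3993 CPM. Sohlh1 was at 0.9708 CPM in poly(A) MII control library 5, with the next at 0.248 CPM, and at 0.2282 CPM in p20 Exosc10 cKO library 1_2, with the next at 0.06025 CPM. In p20 dcKO, Sohlh1 reached 3.719 CPM in library 1_2 against 1.546 CPM in the next. Sohlh2 was at 17.97 CPM in poly(A) GV control library 4 (next 10.37 CPM) and at 19.61 CPM in p20 Dis3 cKO library 1_4 (next 11.34 CPM). Without the latter library, Sohlh2 passed as higher in adult than p20 Dis3 cKO (adjusted p = 0.0237). Taf4b was at 99.67 CPM in p20 control library 2_4, with the next at 69.2 CPM; the Taf4b call in p20 Dis3 cKO held with each library left out.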

How the results depend on the processing

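With spike-in scaling, members called numbered 5 (from 0) for the Dis3 effect at MII minus GV, 6 (from 1) for adult against p20 controls, 6 (from 2) for adult against p20 Dis3 cKO, 1 (from 3) for adult Dis3 cKO, 0 (from 1) for p20 Dis3 cKO, 1 (from 5) for dcKO, 2 (from 4) for dcKO against Dis3 cKO, 1 (from 5) for dcKO against Exosc10 cKO, 5 (from 4) for control MII against GV and 3 (from 4) at GV3h, where 37.4%, 86.0%, 82.4%, 41.6%, 4.49%, 36.7%, 36.4%, 30.3%, 80.3% and 30.2% of all genes passed. At MII 4 were called as before, with Taf4b in place of Lhx8. It turned the sign of 28 of 102 member values. For 19 of these neither scaling gave a call; the other 9, called under at least 1 of the scalings, had log2 values of -0.23 (Sohlh2) and -1.35 (Taf4b) for control MII against GV, -0.54 (Taf4b) and -0.64 (Tbpl2) for Dis3 cKO MII against GV, 0.71 (Nobox) for the Dis3 effect at MII minus GV, -1.21 (Sohlh2) for adult against p20 controls, -1.80 (Nobox) and -1.26 (Sohlh2) for adult against p20 Dis3 cKO, and -0.17 (Nobox) for adult Dis3 cKO. Fitting only the groups compared gave 2 (from 1) at GV, 5 (from 4) at GV3h, 2 (from 4) at MII, 3 (from 1) for the control ages, 1 (from 0) for the difference between age contrasts, 2 (from 1) for p20 Dis3 cKO, 1 (from 0) for Exosc10 cKO and 3 (from 4) for dcKO against Dis3 cKO. In these fits 27.3%, 54.6%, 30.6%, 33.5%, 12.1%, 11.2%, 8.31% and 54.1% of all genes passed. The main fits had 21.9%, 38.6%, 42.1%, 19.1%, 9.32%, 7.37%, 7.45% and 51.5%. DESeq2 gave 2 at GV, 1 for Exosc10 cKO and 3 (from 4) at MII, where 24.1%, 9.63% and 44% of all genes passed. Sums per tag lost 11 calls and gave 0 for the control ages, 0 for adult Dis3 cKO, 0 for p20 Dis3 cKO, 3 (from 5) for dcKO, 2 (from 4) against Dis3 cKO and 3 (from 5) against Exosc10 cKO, where 1.04%, 0%, 1.37%, 31.8%, 28.5% and 26.6% of all genes passed. For named targets and partners, fits added after the data were seen, spike-in scaling lost 13 of 42 values, of which Rspo2 in MII Dis3 cKO (0.026) and Oosp1 in control MII against GV (-0.074) changed sign, and sums per tag lost 20 of 27. The cause of these changes was not tested.

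Title numbers did not pair the libraries: same-numbered deviations had a median correlation of 0.0135 in poly(A) (17 of 142 pairs over 0.1) and 0.017 at p20 (9 of 48). With the number as a replicate block, 1 of 78 member results lost its call, Tbpl2 at GV3h, leaving 3 members called of 4 where 37.3% of all genes passed. Leaving out each library in turn gave 1 to 2 calls at GV, 3 to 4 at GV3h, 2 to 4 at MII, 4 to 4 for control and 4 to 5 for Dis3 cKO MII against GV, 1 to 1 for control and 2 to 3 for Dis3 cKO ages, 0 to 1 for their difference, 2 to 4 for adult Dis3 cKO, 0 to 1 for Exosc10 cKO, 5 to 5 for dcKO, 3 to 4 against Dis3 cKO and 3 to 6 against Exosc10 cKO. Of 2328 member values with a library left out, 40 changed sign, in 13 results, and none of the 40 was called with or without the library. Requiring H3K27me3 peaks above the median signal left 1 member in p20 control, 1 in adult Dis3 cKO and 1 in dcKO, and requiring 3 of 3 libraries left 1, 0 and 0. Counts of Sohlh1 were too low for the tests with a low-count filter.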
